A study of Mus musculus with 20 samples.

Results

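The 4 adult haemoglobin genes Hba-a1, Hba-a2, Hbb-bs and Hbb-bt and the red cell haem enzyme gene Alas2 were followed through every library of a study of mouse cortex. They are 5 of the 25317 gene identifiers in the count table. They were listed by name as markers of the blood that a dissected brain still holds. In a ribosome pull-down they also serve as markers of RNA that came along without being bound. The list was drawn up with earlier results of these data known. All 5 symbols matched 1 identifier each.

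Haemoglobin carries oxygen in red cells and is built from alpha chains, which Hba-a1 and Hba-a2 encode, and beta chains, which Hbb-bs and Hbb-bt encode, each around a haem group. Alas2 encodes the red cell form of aminolevulinate synthase, which carries out the rate-limiting first step of haem synthesis. Red cells of adult mammals have no nucleus, but the youngest ones in the blood, the reticulocytes, still hold ribosomes and much globin messenger RNA. Blood stays in the vessels of a brain that is taken without flushing them. Low levels of globin transcripts have also been described in some neurons and glia.

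The libraries came from the cortex of C57BL/6 mice aged 3 months, either wild type or with a heterozygous deletion of Foxp2, the gene of a forkhead transcription factor. The series' design text places the deletion in the cortex, and its driver is not named in the labels. In the bacTRAP method, ribosomes that carry a green fluorescent protein tag in one kind of cell are pulled out of a tissue lysate with an antibody. Each lysate came from the cortical hemispheres of 1 freshly dissected animal, some of it was kept before the pull-down (Input), the rest went through the anti-GFP pull-down (IP), and both were made into Smart-seq2 libraries. The labels do not name the tagged cells, and all groups share the pull-down procedure. IP and Input were both present for 8 animals: wild types wt734, wt736, wt785, wtBT13 and wtBT14 (n = 5) and heterozygotes het729, het786 and hetBT13 (n = 3). The heterozygotes het730 and hetBT14 have no IP here and a pair of libraries each, labelled Input with titles ending in IX and IXX. What IX and IXX mean is not given, so these 4 libraries stand outside the comparisons.

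Library totals ran from 2782934 to 4072270 counts in the 8 Input libraries, from 4061562 to 5754169 in the 8 IP libraries, and from 2689544 to 5621906 in the IX and IXX libraries. Markers of the labelled tissue were present: Slc17a7, the vesicular glutamate transporter of cortical excitatory neurons, stood at 105 ± 20.1 CPM in Input (SD, n = 8; CPM are counts scaled to a fixed library total). Of 10 tested marker genes of layer 6 corticothalamic neurons 10 were called higher in IP than in Input, among them Ntsr1, a neurotensin receptor of that cell type (log2 fold change 3.32, SE 0.14, edgeR adjusted p = 1.04e-13). Both libraries of het729 stood apart. Its Input was far above the other 7 in haemoglobin RNA, and in its IP the mitochondrially encoded RNA, made inside mitochondria and not translated by cytoplasmic ribosomes, stood at 24.8% of its Input level, against 3.19% to 6.52% in the other 7 animals. The members' differences between genotypes and forms of name are also given without het729.

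In the mouse genome build GRCm38, which is mm10, Hba-a1 (ENSMUSG00000069919) lies on chromosome 11 from 32283511 to 32284465 and Hba-a2 (ENSMUSG00000069917) from 32296489 to 32297298, both on the plus strand. Hbb-bs (ENSMUSG00000052305, 103826534 to 103828096) and Hbb-bt (ENSMUSG00000073940, 103812524 to 103813996) are neighbours on the minus strand of chromosome 7. Alas2 (ENSMUSG00000025270) lies on the plus strand of chromosome X from 150547375 to 150570638. The coding sequences of Hba-a1 and Hba-a2 in the GENCODE transcripts, 429 bases each, differ at 1 base, and those of Hbb-bs and Hbb-bt, 444 bases each, also differ at 1 base. Of all stretches of 50 bases in the Hba-a1 transcript 67.5% also occur in Hba-a2, and of those in Hbb-bs 65.8% occur in Hbb-bt, while 0 are shared between alpha and beta genes. Many reads therefore fit both copies of a pair. How the counting treated such reads is not stated in the labels, so the split within a pair is uncertain, and the sum over the pair is uncertain to the extent that such reads were left out.

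The sequences before the start sites are shown because the 5 genes moved together across libraries, and because the alpha pair cannot be told apart there either. Each run holds the 250 bases before the start in the RefSeq table of GRCm38.p6, 5′ to 3′ on the gene's strand. Capitals mark every match of 4 short promoter motifs on either strand: GATAA (the core of the GATA factor site), CACCC (bound by the KLF family), CCAAT and TATAA. Where matches overlap, all of their bases are in capitals.
Hba-a1 (chr11:32283422-32283671, plus strand): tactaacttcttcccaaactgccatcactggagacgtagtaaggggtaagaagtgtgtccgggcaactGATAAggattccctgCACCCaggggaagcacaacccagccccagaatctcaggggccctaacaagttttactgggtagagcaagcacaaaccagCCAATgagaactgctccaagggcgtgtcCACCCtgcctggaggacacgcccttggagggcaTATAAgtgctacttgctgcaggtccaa
Hbb-bs (chr7:103827929-103828178, minus strand): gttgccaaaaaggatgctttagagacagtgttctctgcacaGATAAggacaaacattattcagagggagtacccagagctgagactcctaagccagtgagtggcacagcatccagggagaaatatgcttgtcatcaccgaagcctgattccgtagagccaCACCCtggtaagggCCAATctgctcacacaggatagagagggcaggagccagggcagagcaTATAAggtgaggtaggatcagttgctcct
Hbb-bt (chr7:103813924-103814173, minus strand): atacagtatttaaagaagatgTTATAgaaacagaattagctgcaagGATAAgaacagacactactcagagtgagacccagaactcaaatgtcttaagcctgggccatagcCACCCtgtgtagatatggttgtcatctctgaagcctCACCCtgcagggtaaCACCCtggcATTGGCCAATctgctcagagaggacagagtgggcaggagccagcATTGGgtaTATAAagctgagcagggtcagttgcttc
Alas2 (chrX:150547167-150547416, plus strand): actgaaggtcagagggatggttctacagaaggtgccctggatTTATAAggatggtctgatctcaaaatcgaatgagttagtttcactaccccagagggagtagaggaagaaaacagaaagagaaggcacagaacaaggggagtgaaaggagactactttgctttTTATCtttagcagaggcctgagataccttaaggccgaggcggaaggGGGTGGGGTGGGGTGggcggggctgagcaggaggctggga

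The run of Hba-a2 (chr11:32296242-32296491) is the same sequence moved by 3 bases, with 247 of 247 overlapping bases identical, whereas Hbb-bs and Hbb-bt shared 70.9% of aligned positions. For all 5 genes the RefSeq start lies inside the GENCODE gene, which begins further upstream, so each run overlaps that gene in part. Matches of GATAA were found in all 5 runs, as were those of TATAA and, on one strand or the other, those of CACCC. Matches of CCAAT were found in the 4 globin runs and not in that of Alas2. In the globin runs the TATAA nearest to the start began 27 to 30 bases before it (-27 in Hba-a1, -30 in Hba-a2, -29 in Hbb-bs and -28 in Hbb-bt), and in the Alas2 run it began at -207. Among 32841 promoters of that table and length, 22.6% held GATAA, 52.0% CACCC, 33.9% CCAAT, 22.8% TATAA and 0.968% all of them. A match is a run of letters, not a measured site.

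In Input, the RNA of the 4 globin genes was present in every animal at a similar level, except in het729. Levels are given as CPM (read counts scaled to a fixed library total) with TMM scaling, a factor that sets the bulk of the genes equal between libraries. Summed over the 4 globin genes, wild types held 402 ± 110 CPM (SD, n = 5), namely 419 (wt734), 532 (wt736), 309.7 (wt785), 479 (wtBT13) and 272 (wtBT14). The heterozygotes het786 and hetBT13 held 398 and 432 CPM, inside the wild-type range. The Input of het729 held 2641 CPM, 6.31 times the median of the other 7 animals and 4.97 times their maximum. That is 0.249% of its counts (95% Wilson interval 0.244% to 0.254%), against 0.0254% to 0.0509% in the other 7; intervals cover counting error only. In bulk tissue, fewer red cells and less RNA per cell cannot be told apart.

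Hba-a1 stood in wild-type Input at 125, 169, 99.98, 161 and 79.1 CPM (wt734, wt736, wt785, wtBT13 and wtBT14) and in heterozygous Input at 118 in het786, 133 in hetBT13 and 819 in het729. Hba-a2 stood at 143, 183, 110.3, 176 and 99.7 CPM in the same wild types, and at 144, 159 and 875 in the same heterozygotes. For both alpha genes het729 was the highest of 8, and het786 and hetBT13 were within the range of the wild types.

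Hbb-bs stood in wild-type Input at 94.6, 111, 65.2, 91.3 and 61.7 CPM (wt734, wt736, wt785, wtBT13 and wtBT14) and in heterozygous Input at 89.7 in het786, 91.6 in hetBT13 and 575 in het729. Hbb-bt stood at 56.2, 69.0, 34.2, 50.1 and 31.6 CPM in the wild types and at 45.4, 48.2 and 371 in the heterozygotes. The beta genes thus followed the order of the alpha genes closely: wt736 was the highest wild type and wtBT14 the lowest for each of the 4.

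Alas2, whose RNA is made in red cell precursors, was near the limit of counting. Its Input levels were 2.69, 6.10, 0.575, 3.06 and 0.949 CPM in the wild types, 3.24 in het786, 2.41 in hetBT13 and 16.95 in het729, from 10, 23, 2, 11, 3, 10, 6 and 65 counts. The het729 value was 2.78 times the highest of the other 7 and 6.31 times their median, close to the ratio of the globin sum.

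Divided by exon length, the wild-type Input levels ran from Hba-a2 at 214 ± 56.2 CPM per kilobase (SD, n = 5) over Hba-a1 at 156 ± 47.3, Hbb-bs at 110.5 ± 27.4 and Hbb-bt at 68.6 ± 22.2 to Alas2 at 1.11 ± 0.914. Neighbouring globin genes in this order overlapped in their spread over animals, and the order within a pair also carries the uncertainty of shared reads. Alas2 lay below every globin gene in every library.

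**Figure D1:**
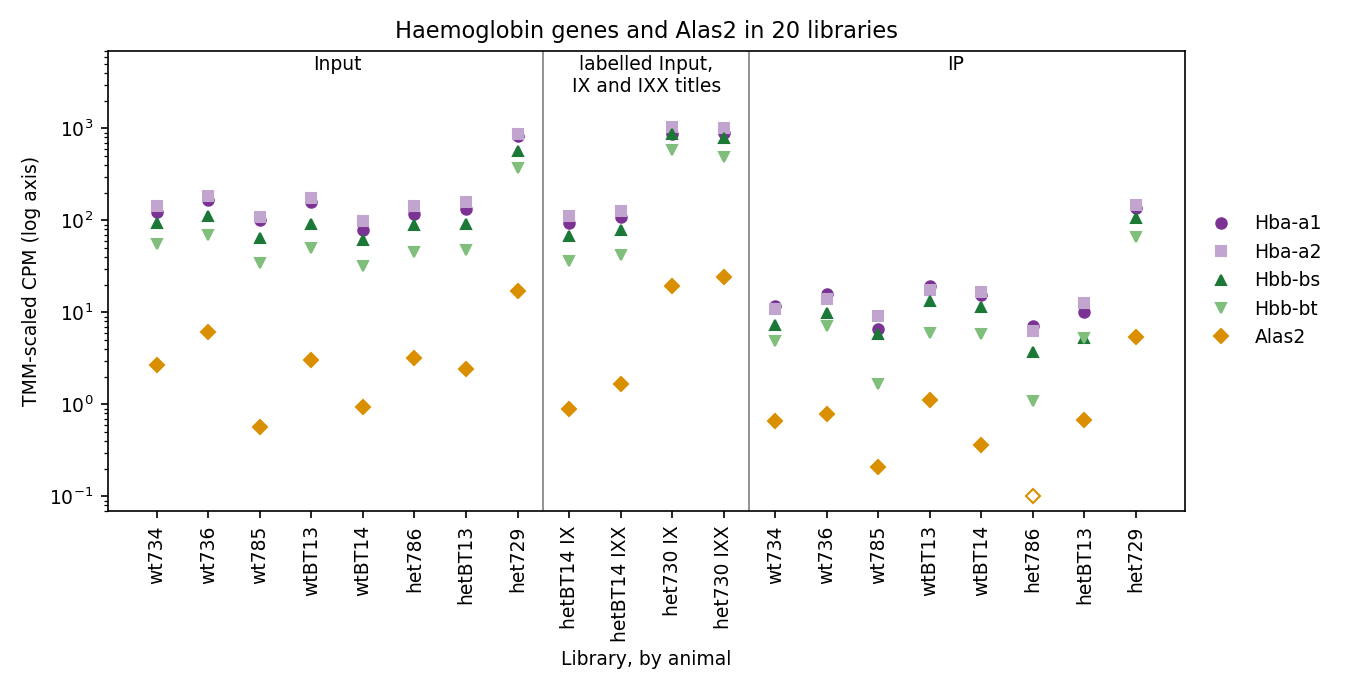
TMM-scaled CPM (log axis) of the 5 genes in each of the 20 libraries, 1 point per gene and library; the open diamond at the bottom marks Alas2 with 0 counts in the IP of het786. In Input and in IP, het729 lies above the other 7 animals for all 5 genes, and the libraries of het730 lie at the level of the het729 Input.

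Few genes with a mean of at least 5 CPM shared the pattern of the globins. Of 13870 genes tested in Input 1585 (11.4%) were highest in het729. The pattern asked for het729 at 5 times the median of the other 7 or more. It also asked for het729 and both het730 libraries above those 7 and hetBT14. With a mean of at least 5 CPM only 4 genes met it, and these 4 were the globin genes. At 2 times the median there were 6, the other 2 being Zfp182 at 2.21 and Shc1 at 2.03 times. Alas2 was left out by the limit on the mean. It stood at 6.31 times the median in het729 and at 19.4 and 24.5 CPM in het730. The globin ratios were 7.70 for Hbb-bt, 6.57 for Hba-a1, 6.30 for Hbb-bs and 6.06 for Hba-a2.

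RNAs of the red cell membrane that brain cells make little of were scarce. Slc4a1, the anion exchanger of the red cell membrane, had 4 counts in the het729 Input, and its 17 counts over 20 libraries gave 1.04 CPM in het729, 2.11 and 1.77 in het730 and at most 0.287 in the other 7 Input libraries. Rhd, the gene of a blood group protein, had 9 counts in all and 0 in the het729 Input. More abundant genes of this list, which brain cells also express, were in part highest in the same animals. Ube2l6, a ubiquitin enzyme, was at 18.0 CPM in the het729 Input, at 17.3 and 21.0 in het730 and at most 15.3 in the other 7 Input libraries. Cd24a, a surface protein gene, was at 11.2 CPM in het729, at 13.1 and 13.3 in het730 and at most 10.6 in the other 7. Other genes of this list went the other way in the het729 Input. Tfrc was at 36.0 CPM against at least 39.0 in the other 7, and Add2 at 22.4 against at least 23.1. Of all 13870 genes tested in Input 254 (1.83%) were higher in het729 and both het730 libraries than in the other 7 and hetBT14. The summed RNA of 34 red cell membrane and maturation genes in the table (20 of them passed the count filter in IP against Input) was 3321 CPM in the het729 Input and 2803 to 3484 in the other 7. White cell and platelet genes, 24 in the table, summed to 110.3 CPM in het729 and to 114 to 153 in the other 7, with 3 of 24 at 0 in all 8 Input libraries. In het729 most of this sum came from Ighm (55.8 CPM) and Cd4 (43.3 CPM), and every other gene was at 3.39 CPM or less. The sum thus mainly follows Ighm and Cd4, and Ighm was higher in IP than in Input (log2 fold change 1.54). The neutrophil genes S100a8 and S100a9 were highest of 8 in het729, at 1.56 and 0.782 CPM from 6 and 3 counts, against at most 1.44 and 0.324 in the others. In the IX and IXX libraries of het730, S100a8 was at 0 and 1.48 CPM and S100a9 at 0.844 and 1.48. Other neutrophil genes of the list, Ngp, Camp, Ltf and Retnlg, had 0 counts in the het729 Input. Endothelial marker RNA, 20 genes, was 99.4 CPM in het729 and 110.1 to 153 in the other 7, and microglial RNA, 14 genes, was 193 against 190.5 to 289. Their part in the result was not tested.

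The libraries with IX and IXX titles repeated both levels. The IX and IXX libraries of het730 held 3352 and 3197 CPM of globin RNA, which differ by 1.05 times and exceed every Input library, and those of hetBT14 held 309.1 and 356 CPM, within the wild-type Input range. Alas2 was at 19.4 and 24.5 CPM in het730 and at 0.900 and 1.68 in hetBT14. Within an animal the IX and IXX libraries thus lay close together, and both animals entered only alternatives of the genotype comparison in Input.

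The proportion of alpha to beta globin RNA was similar over most libraries. The ratio of alpha to beta counts, not corrected for length and so used only between libraries, had a median of 1.93 over 20 libraries and ran from 1.31 to 2.81. The 3 lowest values were 1.31 and 1.48 in the libraries of het730 and 1.63 in the IP of het729, and the highest came from the IP of het786 with 99 globin counts. Among the 8 Input libraries it ran from 1.78 in wt734 to 2.39 in wtBT13, with 1.79 in het729. The ratio of Hbb-bt to Hbb-bs counts was 0.505 to 0.646 over the 8 Input libraries and that of Hba-a2 to Hba-a1 was 1.07 to 1.26. In IP, with fewer counts, they ran from 0.286 to 1 and from 0.872 to 1.38.

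**Figure D2:**
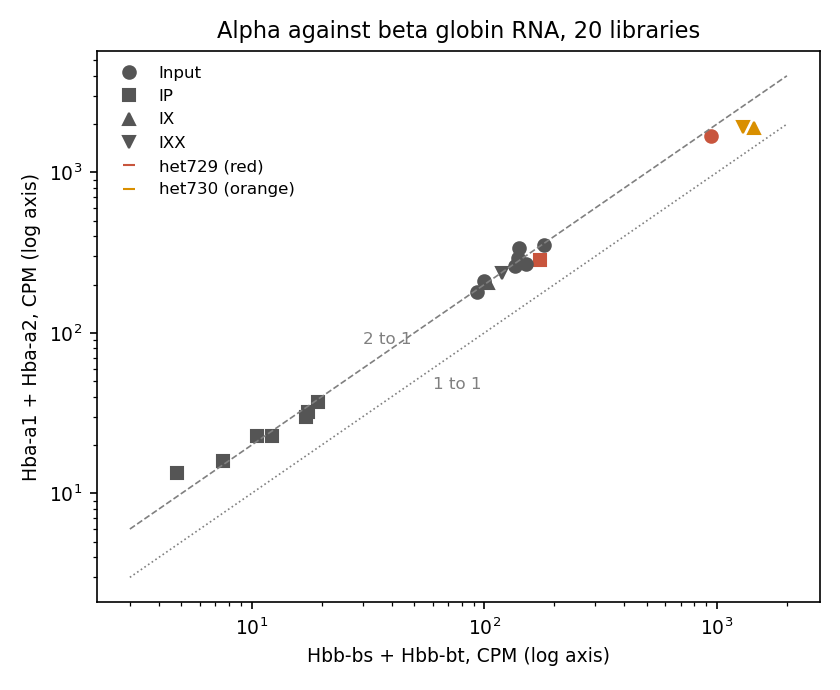
Summed CPM of Hba-a1 and Hba-a2 against summed CPM of Hbb-bs and Hbb-bt in 20 libraries (log axes), 1 point per library, with lines at ratios of 2 to 1 (dashed) and 1 to 1 (dotted). Points run along the 2 to 1 line over most of the range of levels, and the 2 libraries of het730, at ratios of 1.31 and 1.48, lie furthest below it.

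Relative to other transcripts, the pull-down held far less globin RNA than the lysate, a median of 8.61% of the Input level over 8 animals. In IP, the globin sum was 42.3 ± 13.1 CPM in wild types (SD, n = 5; 35.1, 47.1, 23.4, 56.3 and 49.6 in the order above), 18.2 in het786, 33.2 in hetBT13 and 458 in het729. All 5 genes were called lower in IP than in Input with edgeR across 14797 genes, with animal as a block and an adjusted p below 0.05 as threshold; 29.9% of all genes tested were called lower in this comparison. The size sets them apart from most of those: only 42 to 46 genes (0.284% to 0.311%) fell further than each globin gene, and 163 (1.10%) fell further than Alas2.

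Hba-a1 stood in IP at 11.9, 15.9, 6.68, 19.3 and 15.4 CPM in wt734, wt736, wt785, wtBT13 and wtBT14, and at 7.17 in het786, 10.2 in hetBT13 and 136 in het729. Hba-a2 stood at 11.02, 14.0, 9.18, 17.7 and 16.9 CPM in the wild types and at 6.25, 12.5 and 148 in the heterozygotes. Both were lower in IP than in Input in 8 of 8 animals. Without het729 the highest IP level was 19.3 CPM for Hba-a1 and 17.7 for Hba-a2, and the lowest Input level was 79.1 and 99.7. The share of all genes lower in 8 of 8 animals, or with fractions that do not overlap, is not given here. The log2 fold change was -3.21 for Hba-a1 (SE 0.20, edgeR adjusted p = 1.91e-06) and -3.34 for Hba-a2 (SE 0.23, adjusted p = 1.05e-05), against a median of 0.04 over all genes.

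Hbb-bs stood in IP at 7.35, 9.97, 5.84, 13.3 and 11.5 CPM in the wild types, 3.68 in het786, 5.25 in hetBT13 and 107 in het729. Hbb-bt stood at 4.84, 7.17, 1.67, 5.98 and 5.86 CPM in the wild types, 1.10 in het786, 5.25 in hetBT13 and 66.8 in het729. Again the IP of het729 alone reached the Input range of the other animals. Hbb-bs had a log2 fold change of -3.20 (SE 0.27, edgeR adjusted p = 3.30e-05) and Hbb-bt of -3.14 (SE 0.23, adjusted p = 1.04e-06), each with 8 of 8 animals lower in IP.

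Alas2 fell less, by 2.05 on the log2 scale (SE 0.33, edgeR adjusted p = 1.47e-05), also in 8 of 8 animals. It stood in IP at 0.668, 0.779, 0.209, 1.11 and 0.366 CPM in the wild types, 0.678 in hetBT13 and 5.44 in het729. The IP of het786 had 0 counts, which allows up to 0.552 CPM (3 counts). With at most 5 counts in each IP library other than that of het729, its ratio in single animals is imprecise, and a difference between the falls of Alas2 and the globins was not tested. It passed the filter on low counts through its Input level. Without het729 the log2 fold changes were -3.54 for Hba-a1, -3.71 for Hba-a2, -3.75 for Hbb-bs, -3.58 for Hbb-bt and -2.51 for Alas2, all of them called.

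Expressed as the IP level in percent of the same animal's Input, the globin sum was 4.58% in het786, 7.55% in wt785, 7.69% in hetBT13, 8.38% in wt734, 8.85% in wt736, 11.8% in wtBT13, 17.3% in het729 and 18.2% in wtBT14. The animal wtBT14, the highest, had the lowest Input level of the 8, and het729, next to it, had the highest. Each globin gene gave the same 3 animals at the top, wtBT14, het729 and wtBT13, and the same animal, het786, at the bottom.

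Lists of other cell types gave a scale for these values. Mitochondrially encoded RNA stood in IP at 3.19% to 6.52% of Input in the animals other than het729, oligodendrocyte RNA at 19.7% to 39.2% in all 8, interneuron RNA at 36.8% to 54.5%, microglial RNA at 42.3% to 75.1% and astrocyte RNA at 46.2% to 59.4%. Endothelial RNA, from the walls of the vessels that hold the blood, stood at 90.7% to 117%, and layer 6 corticothalamic RNA at 118% to 192%. The endothelial genes were mixed: of 9 tested 2 were called higher in IP and 3 lower (all genes tested: 33.3% and 29.9%). Egfl7, a large part of the sum, rose by 0.52 on the log2 scale, while Cldn5 fell by 1.29, Eng by 0.64 and Pltp by 0.58. Globin RNA was thus below each of these lists but the mitochondrial one in every animal, and in het729 it was below that one too. het786 had the lowest percentage for mitochondrial, oligodendrocyte, interneuron, microglial and astrocyte RNA as well as for globins, and wtBT14 the highest for microglia and endothelium.

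**Figure D3:**
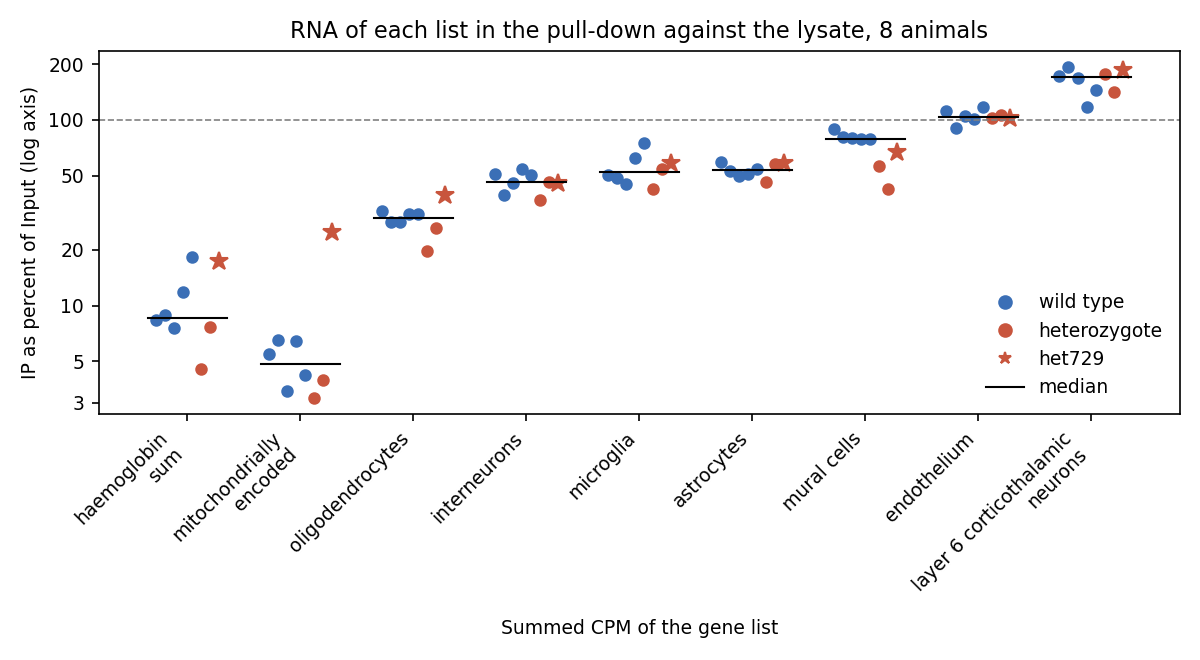
IP level in percent of the same animal's Input (log axis) for the summed CPM of the 4 globin genes and of 8 marker lists, 1 point per animal (blue circles wild type, red circles heterozygote, red star het729, bar the median of 8). The globin median lies at 8.61%, between mitochondrially encoded RNA and oligodendrocyte RNA, and het729 stands far from the others in mitochondrially encoded RNA.

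Both genotypes showed the fall. In wild types alone all 5 genes were called lower (25.6% of all genes tested were), and in heterozygotes alone likewise (22.1%). Among the 5, Alas2 passed the filter only through its Input level, as given above. The log2 fold change of Hbb-bs was -3.15 in wild types (SE 0.34) and -3.26 in heterozygotes (SE 0.41). The difference between genotypes was called for 0 of 5 members and for 0 of 14797 genes with edgeR; before adjustment, 454 genes (3.07%) had a p under 0.05, and both DESeq2 and limma-voom called 0. For Hbb-bs it was -0.11 (heterozygote minus wild type, SE 0.56, edgeR adjusted p = 1.0). It moved to -1.20 (SE 0.33, edgeR adjusted p = 0.950) without het729 and to -0.52 with DESeq2, and its sign turned under other alternatives, up to 0.42 without the replicate block.

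Other genes of the haem and red cell pathways fell less than the globins or rose. Of 14 haem synthesis genes 8 were called higher in IP and 3 lower (all genes tested: 33.3% higher and 29.9% lower), with a median log2 fold change of 0.38. Alas1, the housekeeping counterpart of Alas2, rose by 0.72 (SE 0.07, edgeR adjusted p = 6.06e-09), from 58.1 ± 6.92 CPM in Input to 95.6 ± 11.2 in IP (SD, n = 8). Urod, a later enzyme of the pathway, rose by 0.63, and Slc25a38, a mitochondrial carrier needed for haem synthesis, rose by 0.62. Fech, the enzyme that puts iron into the ring, fell by 0.41 (SE 0.08, edgeR adjusted p = 8.52e-05). Slc25a37, mitoferrin, which brings iron into mitochondria, fell by 1.03 (SE 0.13, edgeR adjusted p = 4.92e-07).

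Of the globins outside red cells, Ngb, the globin of neurons, rose by 0.43 (SE 0.11, edgeR adjusted p = 0.00131), and Cygb, the widely expressed cytoglobin, fell by 0.25 (SE 0.07, adjusted p = 0.00378). The theta globin genes Hbq1a and Hbq1b, near the alpha genes, had 114 and 78 counts over 20 libraries. The embryonic gene Hbb-y had 5 counts, and neither it nor the theta genes reached the test in IP against Input. Ngb is therefore 1 of 2 tested globin genes outside the red cell.

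Of 20 tested red cell membrane and maturation genes 9 were called lower and 5 higher, with a median of -0.19, where 29.9% of all genes tested were called lower and 33.3% higher. Car2, a carbonic anhydrase that red cells share with oligodendrocytes, fell by 1.39 (SE 0.09, edgeR adjusted p = 2.21e-10), and Dmtn, dematin of the membrane skeleton, fell by 0.94. Ube2o, a ubiquitin enzyme of red cell maturation, rose by 0.94. Of 4 tested erythroid transcription factor genes, all of which other cells express, Klf3 (-1.47) and Lmo2 (-1.06) fell and Ldb1 (1.10) and Bcl11a (0.53) rose. The factors Gata1 and Klf1, which define red cell precursors, had 1 and 32 counts over 20 libraries. The largest of these falls, that of Klf3, is under the fall of each globin gene.

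Among 7 tested genes of haemoglobin and iron clearance 4 were called lower and 2 higher, where 29.9% of all genes tested were called lower and 33.3% higher. The ferritin genes Fth1 and Ftl1, whose proteins store iron, fell by 2.64 (SE 0.13, edgeR adjusted p = 1.69e-11) and 1.96 (SE 0.08, adjusted p = 4.25e-14), the largest falls of this list. Slc40a1, the iron exporter ferroportin, fell by 1.14, and Lrp1, a receptor that takes up haem bound to haemopexin among other ligands, rose by 0.87.

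The study compared Foxp2 genotypes, and no haemoglobin gene was called between them. In Input the means were higher in heterozygotes for 5 of 5 members, with log2 fold changes of 1.52 for Hba-a1 (SE 0.71), 1.49 for Hba-a2 (SE 0.66), 1.60 for Hbb-bs (SE 0.69), 1.72 for Hbb-bt (SE 0.78) and 1.57 for Alas2 (SE 0.81), and edgeR adjusted p from 0.705 to 0.721. Called were 0 of 5 members and 0 of 13870 genes (0%), with 979 genes (7.06%) past the threshold before adjustment and 0 calls with DESeq2 or limma-voom, although DESeq2 gave the 4 globin genes no adjusted p. Without het729 the fold changes were -0.02 for Hba-a1, 0.09 for Hba-a2, 0.09 for Hbb-bs, -0.05 for Hbb-bt and 0.06 for Alas2, with SE of 0.20 to 0.28 for the globins. Among these 8 animals the Input difference thus rested on het729. With the IX and IXX libraries of het730 and hetBT14 added, summed per animal, the fold changes were 1.71 for Hba-a1, 1.71 for Hba-a2, 1.98 for Hbb-bs (SE 0.79), 2.11 for Hbb-bt and 1.79 for Alas2, each with an edgeR adjusted p of 0.686.

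On the log scale of single libraries the groups overlapped for each gene. The mean log2 CPM differed by 0.94 for Hba-a1, 0.97 for Hba-a2, 1.02 for Hbb-bs, 1.01 for Hbb-bt and 1.26 for Alas2, and exact permutation tests (two-sided) gave p from 0.161 to 0.25, where the design allows no less than 0.0179. These differences are smaller than the fitted ones because a mean of logs gives less weight to het729. Within the animals with BT names (1 heterozygote and 2 wild types) Hbb-bs differed by 0.29. Within those with number-only names it differed by 1.36 with het729 and by 0.02 without it (1 heterozygote against 3 wild types).

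In IP, 4 globin genes were tested, and Alas2 was left out by the filter. Their log2 fold changes were 1.87 for Hba-a1 (SE 0.98), 2.01 for Hba-a2 (SE 0.98), 2.01 for Hbb-bs (SE 1.08) and 2.23 for Hbb-bt (SE 1.10), each with an edgeR adjusted p of 0.981. Called were 0 of 4 members and 0 of 14755 genes (0%); 604 genes (4.09%) were past the threshold before adjustment, DESeq2 called 1 gene and limma-voom 0, and DESeq2 gave an adjusted p to Hbb-bt only among the 4. Without het729 the direction turned, to -0.68, -0.55, -1.10 and -0.68 in the same order, with SE of 0.32 to 0.56 and adjusted p of 1.0. For Hbb-bs, het786 (3.68 CPM) and hetBT13 (5.25 CPM) were below all 5 wild types (5.84 to 13.3 CPM) in that comparison. The remaining globin genes overlapped there: wt785 was below hetBT13 for Hba-a1 (6.68 against 10.2 CPM), Hba-a2 (9.18 against 12.5) and Hbb-bt (1.67 against 5.25). The share of all genes that separate as Hbb-bs did is not given here. With all 8 animals the groups overlapped for Hbb-bs too. Exact permutation tests of the mean log2 CPM over all 8 gave p from 0.625 to 0.821 for the 5 genes.

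Mitochondrially encoded RNA moved with the globins in this fraction: 14 of 14 tested genes had a higher mean in heterozygous IP, with a median log2 fold change of 1.04 and 0 called. Their sum was 3709 CPM in the IP of het729, 553 in het786, 619.8 in hetBT13 and 601 to 1125 in the wild types. Its part in the globin result was not tested.

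**Figure D4:**
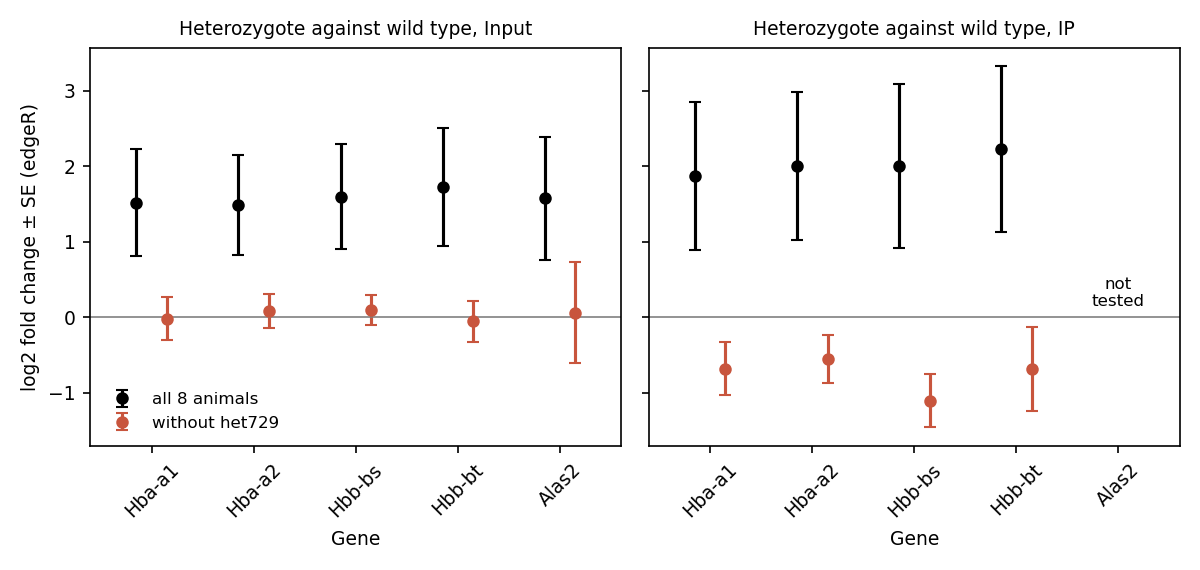
Fitted log2 fold change of heterozygotes against wild types (edgeR, bars ± SE) for each gene in Input (left) and IP (right), with all 8 animals (black) and without het729 (red). Without het729 the Input values lie near 0 and the IP values below 0; Alas2 was not tested in IP.

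Animals carried 2 forms of name, BT names (n = 3) and number-only names (n = 5), which the labels do not explain. With genotype in the fit, the form of name was called for 813 of 13870 genes (5.86%) in Input and 97 of 14755 (0.657%) in IP, and for 0 of 5 and 0 of 4 members. For Hbb-bs the difference of BT from number-only names was -0.83 in Input (SE 0.78, edgeR adjusted p = 0.635) and -0.65 in IP (SE 1.43, adjusted p = 0.872). In Input it was -0.18 without het729 and -0.27 without hetBT13. In IP it was 0.64 without het729 and 0.66 without hetBT13, so its direction depended on those animals.

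Across animals, alpha and beta globin RNA followed each other within each fraction. Of 7 relations computed over the 8 animals on log2 CPM, with exact permutation p adjusted over the 7 by Benjamini-Hochberg, Hbb-bs followed Hba-a1 in Input with r = 0.989 (p = 0.000397, adjusted 0.00182; rho = 0.905, p = 0.00456, adjusted 0.0160). Over the 7 animals other than het729, which stood apart, r was 0.910 (exact p = 0.00575; rho = 0.857), and it was 0.833 without het729 and wtBT14, the 2 animals farthest from the median. In IP the same pair had r = 0.986 (exact p = 0.000521, adjusted 0.00182; rho = 0.905), 0.911 without het729 and 0.987 without het729 and wt785. Alpha and beta transcripts share 0 stretches of 50 bases, as given above, unlike the genes within a pair.

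Hbb-bs followed Alas2 in Input with r = 0.883 (exact permutation p = 0.00109, adjusted 0.00255; rho = 0.762, p = 0.0368, adjusted 0.0643), 0.956 without het729 and 0.959 without het729 and wt785, although rho fell to 0.486 in the last case. In IP it was 0.910 (exact p = 0.00427, adjusted 0.00747; rho = 0.762), 0.726 without het729 and 0.435 without het729 and het786, so that relation rested on those animals. Alas2 in most IP libraries is a matter of a few counts.

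The relation of Hbb-bs in Input to Hbb-bs in IP rested on het729. Over 8 animals r was 0.873 (exact permutation p = 0.0664, adjusted 0.0930; rho = 0.333, p = 0.428, adjusted 0.499), over 7 it was -0.04, and without het729 and wtBT14 it was 0.353. The log2 difference of IP from Input of Hbb-bs against that of mitochondrially encoded RNA gave r = 0.606 (exact p = 0.0986, adjusted 0.115; rho = 0.524), 0.461 without het729 and 0.167 without het729 and het786. It was 0.816 without wtBT14, the animal with a high globin percentage and a mitochondrial one of 4.21%. Input Hbb-bs against summed endothelial RNA gave r = -0.53 (exact p = 0.203, adjusted 0.203; rho = -0.14), -0.04 without het729 and -0.71 without wt785 and wtBT13, the 2 farthest from the median. Neither of the last 2 relations passed the test.

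The genes most like Hbb-bs across the 8 Input libraries, by Pearson r of log2 CPM among 12145 genes with a mean of at least 5 CPM, were Hbb-bt (0.997), Hba-a2 (0.994) and Hba-a1 (0.989). After them came Cfap298 (0.906), Exosc8 (0.903), Cacnb3 (0.903), Prr13 (0.900), Epor (0.893), Ift27 (0.891), Lamtor4 (0.885), Smt3h1-ps (0.881), Tmem91 (0.876) and Nipsnap1 (0.873). In het729 these 10 stood at only 1.12 to 1.49 times the median of the other 7 animals, the highest being Epor, the erythropoietin receptor, at 16.2 against 10.85 CPM. These r describe 8 libraries that share het729 as their highest point.

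In IP, among 12067 genes, Hba-a2 (0.986) and Hba-a1 (0.986) came first, and Hbb-bt (0.944) after 9 other genes. Those 9 and the one after Hbb-bt were ENSMUSG00000072829 (0.982), Cdr1 (0.978), Gm15536 (0.968), Rn7s1 (0.967), Atp6v1g1 (0.966), Rab6a (0.955), mt-Cytb (0.951), ENSMUSG00000059511 (0.947), Vamp3 (0.945) and Nrsn1 (0.936). Several of them were high in the IP of het729 as the globins were: Rn7s1, a gene of the signal recognition particle RNA, at 15.6 times the median of the other 7, Cdr1, whose locus also makes an antisense RNA that unstranded reads cannot tell apart, at 12.7 times, and mt-Cytb, mitochondrial cytochrome b, at 6.51 times. Hbb-bs itself was at 14.6 times.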

How the data were processed

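Raw read counts per Ensembl gene for 20 Smart-seq2 libraries were used as the authors deposited them. The submitters' processing notes name HTSeq and the build mm10; the aligner, versions and annotation release, and the settings for strand and for reads with several matches, are not given in the sources used here. All values were whole numbers at or above 0. Of 25317 identifiers 24873 matched a gene name and 444 did not.

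Counts were analysed with R 4.3.3 and edgeR 4.0.16 (filterByExpr with a minimum of 10 counts, TMM, robust quasi-likelihood F test, Benjamini-Hochberg over all genes tested, threshold 0.05). IP against Input and its difference between genotypes were fitted over the 16 libraries of 8 animals with animal as a block, since the protocol takes both from 1 lysate; genotype, and form of name with genotype, were fitted within a fraction. Deviations from the group means of the 2 libraries of an animal correlated at r from 0.070 to 0.292 over 12183 genes. CPM share 1 TMM scaling of all 20 libraries; log2 CPM use a prior count of 1. Errors over animals are SD. Where nothing says that samples came from separate litters or days, p-values measure the spread between these animals. Alternatives were DESeq2 1.42.0, limma-voom (limma 3.58.1), other scalings and filters, and no block. Further ones were form of name as a covariate, each animal left out, and the IX and IXX libraries added. The fits were run on simulated data with the same spread for every gene. That spread was smaller than the members' own, so the simulation says little about the fits of the members. Exact permutation tests used scipy 1.17.1. The members, the gene lists and the tests were chosen with earlier results of these data known.

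Genes were named by a rule: the 5 members, the 10 other genes with the highest r with Hbb-bs in each fraction (mean of at least 5 CPM), and up to 4 tested genes of smallest p per list. Fech, Hbq1a, Hbq1b, Hbb-y, Slc4a1, Rhd, Ube2l6, Cd24a, Tfrc, Add2, S100a8, S100a9, Ngp, Camp, Ltf, Retnlg, Gata1, Klf1, Zfp182 and Shc1 were added by role or after their values were seen. Some genes that the rule names are not reported here. Hba-x, Hbb-bh1, Hbb-bh2, Hbb-bh0, Rhag, Ahsp, Pklr, Gfi1b and Ctgf were not matched by symbol and are not used here. Of the marker lists not described elsewhere, glutamatergic neuron genes were called higher in 7 of 10 and lower in 2, and mural cell genes higher in 1 of 7 and lower in 3. Of all genes tested in IP against Input 33.3% were called higher and 29.9% lower. Positions and transcripts are GENCODE vM21 (GRCm38), and promoters come from the RefSeq table of GRCm38.p6, where all 5 members matched.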

Additional observations from a re-analysis of the deposited data

Results flagged for a closer look

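Among 18 groups of 4 to 10 samples tested for a single distant value, 1 had one, and chance flags about 1 in 20. In wild types (n = 5) the IP level of Hba-a2 in percent of Input was 16.9% in wtBT14, against 7.68% to 10.1% in the other wild types. The same animal had the highest percentage for Hba-a1, at 19.5%, Hbb-bs, at 18.7%, and Hbb-bt, at 18.5%, and its microglial RNA, at 75.1%, was also the highest of 8.

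In data outside the comparisons, the IX and IXX libraries of het730 held a haemoglobin sum of 3352 and 3197 CPM, above the 5 wild-type Input libraries at 272 to 532 CPM. Their mean is 7.82 times the wild-type median, and that of the hetBT14 libraries, at 309.1 and 356 CPM, is 0.794 times.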

How the results depend on the processing

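Of the values recomputed under alternatives 399 kept their direction and their side of the threshold, 19 turned direction, 2 became past the threshold, 1 was no longer past it and 1 count moved. All 5 members stayed lower in IP than in Input, and past the threshold, in each of 15 alternatives, which leave out each animal or change the tool, scaling or filter. Without the replicate block the count of members called was also 5. Among them, Alas2 passed the main filter on low counts only through its Input level. The calls for genotype and for its difference between fractions were 0 of the members in all alternatives run, but DESeq2 gave no adjusted p for the 4 globin genes in Input, nor for Hba-a1, Hba-a2 and Hbb-bs in IP, so it could not call them. Form of name in IP called 1 member with no low-count filter, where more genes are tested, and 0 otherwise.

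Values that turned were not past the threshold in either direction. For the Hbb-bs difference of IP against Input between genotypes these were 0.10 with limma-voom and 0.42 without the replicate block, and leaving out 1 animal gave -1.20 (het729) to 0.22 (het786), also above 0 without hetBT13 (0.16) and wtBT14 (0.11). For genotype in Input, adding the IX and IXX libraries gave 1.71 to 2.11 for the 5 members, and adding them while leaving out het729 and het730, an alternative chosen after seeing the data, gave -0.13 for Hba-a1, -0.037 for Hba-a2, -0.028 for Hbb-bs, -0.16 for Hbb-bt and -0.50 for Alas2, and leaving out 1 animal gave -0.016 to 1.92 for Hba-a1 and -0.051 to 2.14 for Hbb-bt. For genotype in IP, leaving out 1 animal gave -0.68 to 2.39 for Hba-a1, -0.55 to 2.54 for Hba-a2, -1.10 to 2.54 for Hbb-bs and -0.68 to 2.79 for Hbb-bt, the lowest each time without het729. For form of name in IP, Hbb-bs ran from -1.15 without wtBT13 to 0.66 without hetBT13, and was 0.64 without het729.

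For the relations, leaving out 1 animal (also chosen after seeing the data) moved r of Hbb-bs between Input and IP from -0.036 (without het729) to 0.935 (without wtBT14, then past the threshold). That of Hbb-bs and Alas2 in IP ran from 0.726 (without het729, then not past it) to 0.947. That of Hbb-bs and mitochondrial differences ran from 0.461 (without het729) to 0.816 (without wtBT14, then past it). In each the cause was not tested. Between genotypes the labels share the names BT13 and BT14, the latter with hetBT14 outside the comparisons, and no pairing was made there. Depth limits Alas2, with 0 to 5 counts in 7 of 8 IP libraries.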
